A study of Glycine max with 10 samples.

Results

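The members described here are the soybean probe sets whose gene symbol starts with DREB, AP2 or ERF, the names given to plant transcription factors that share the AP2/ERF DNA-binding domain. A probe set is a group of array oligonucleotides that together report 1 transcript. The rule took probe sets with exactly 1 gene in the probe-to-gene table and found 13 probe sets of 10 genes, out of 37593 probe sets, of which 8677 carry exactly 1 symbol. There are 6 DREB probe sets of 6 genes (DREB, DREB1, DREB1-like, DREB2A2, DREB3 and DREB5), 1 AP2 probe set (AP2-9), and 6 ERF probe sets of 3 genes (ERF3, ERF5 and ERF6). ERF3 is measured by 4 probe sets, called a, b, c and d here, of which c and d are of the type that can match several related transcripts. The symbol is a name only: RefSeq lists the ERF names GmERF006 and GmERF007 as synonyms of DREB, and CBF and DREB1 as synonyms of DREB1-like.

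Transcript levels were measured in developing seeds of the unmodified, untreated variety Evans, grown in the field near Ames. The ages sampled, in days after flowering (DAF), were 25, 30, 40, 45 and 50, with 2 biological replicates at each age and 1 Affymetrix Soybean Genome Array per replicate, 10 arrays in all. Each replicate pooled pods from several plants, so the error is the spread between pools of field-grown pods. The groups were set by age, with no treatment or genotype control. The number of seeds extracted per sample also differed between ages, by the study's methods, and was smallest at 45 DAF, so it cannot be told apart from age.

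Proteins of the AP2/ERF family bind short promoter elements and switch neighbouring genes on or off. DREB proteins are named for the dehydration-responsive element, which drives genes that protect cells during drought, cold and salt stress. ERF proteins are named for ethylene response factors and bind the GCC box found in ethylene- and pathogen-responsive promoters. Late in development a soybean seed stops filling, loses water and becomes tolerant of drying, a programme in which abscisic acid takes part. For the soybean symbols ERF3, ERF5, ERF6, DREB3, DREB5 and AP2-9 the name alone does not establish which Arabidopsis protein is the counterpart.

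The tissue label was borne out by its storage protein markers. Of 16 probe sets for storage proteins and seed protease inhibitors, 12 had a signal of 20000 or more in all 10 arrays. Of the 5 root nodule probe sets, NOD33 had a mean signal of 17250 ± 2169 at 25 DAF (SD, n = 2), and the other 4 had means of 3.29 to 104.7 there. The 6 leaf probe sets, with RCA symbols, had means from 314 (RCA11) to 8191 (RCA14) at 25 DAF. The leaf list was thus not low in these seeds. The 2 arrays of 50 DAF had medians of 220.8 and 222.8 and the other 8 arrays 303.8 to 325.2, so the signals below were rescaled to a common median of 309.9. The arrays carry no detection calls here, and a signal under 50 is called low. At 45 DAF the replicates differed more than at any other age, with a median SD of 0.42 on the log2 scale against 0.23 to 0.26 at the other ages and a correlation of 0.880 against 0.919 to 0.927.

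DREB1, DREB2A2 and ERF6 changed over the 5 ages by the overall F-test of limma at an adjusted p under 0.01, which makes 3 of 13 members, beside 24% of all probe sets. The 3 comprised 2 DREB members and 1 ERF member. All 3 had their highest mean at 50 DAF, as did 10 of the 13 probe sets, beside 42.6% of all probe sets. The share called over time was thus close to that of the whole array. Since whole seeds were extracted, a change in the share of a cell type and a change in transcript per cell cannot be told apart.

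**Figure D1:**
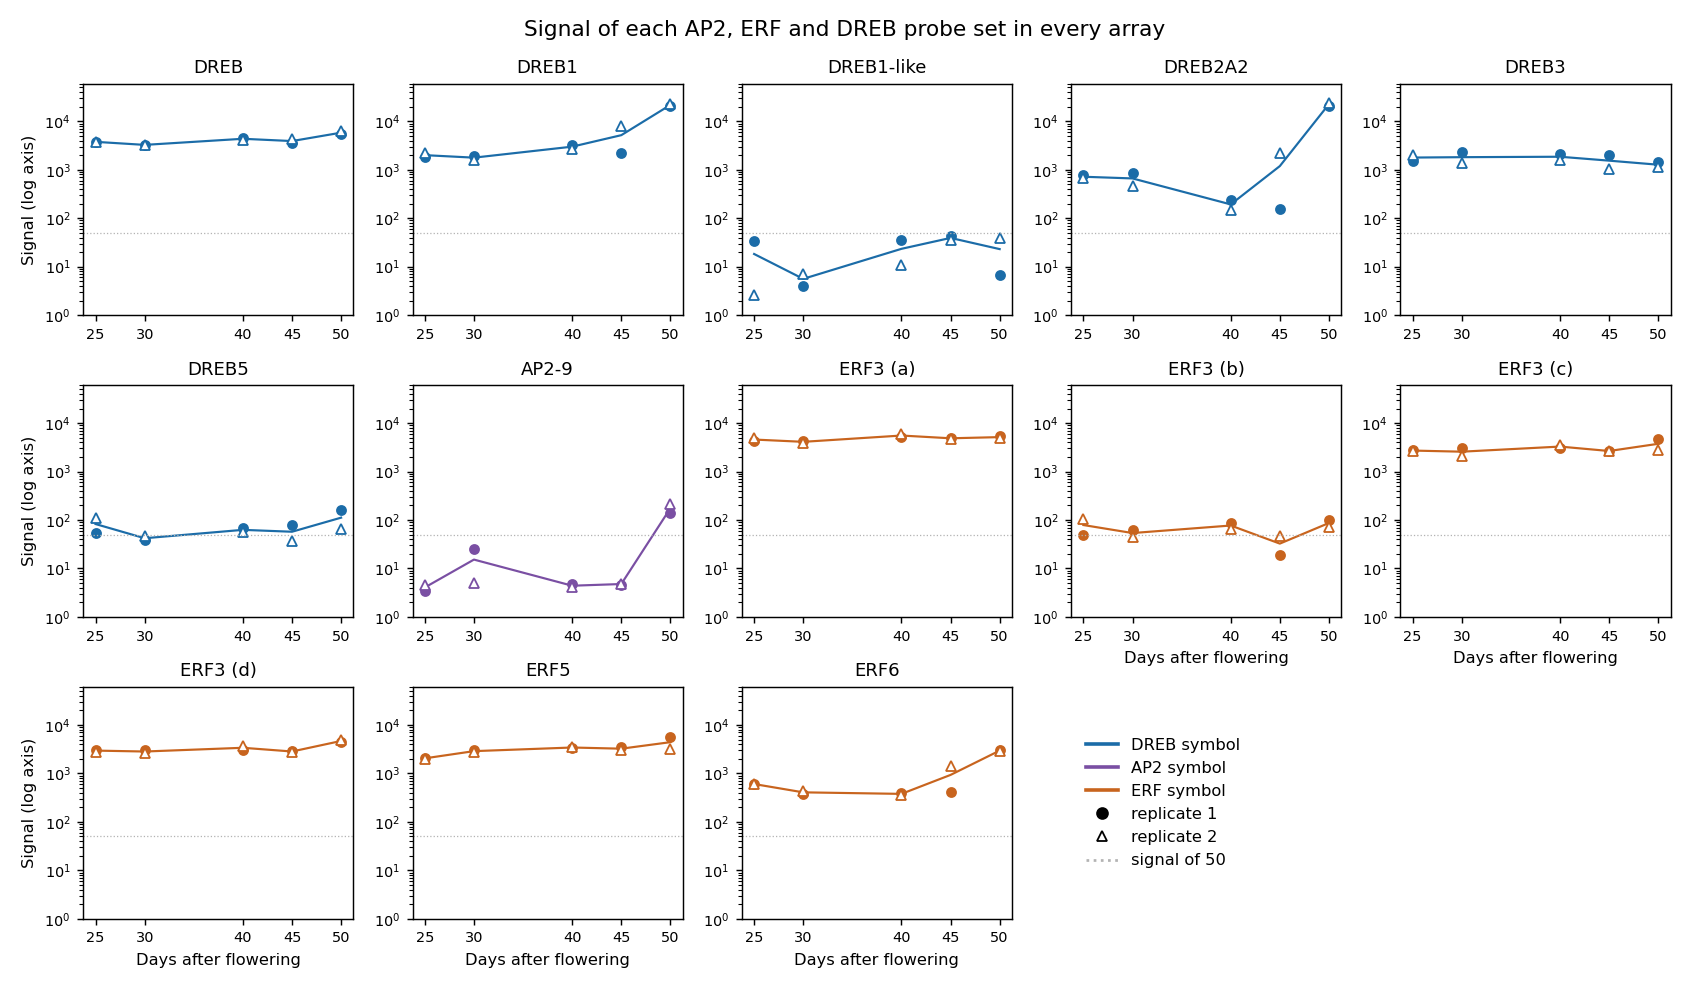
Rescaled signal (log axis) of each of the 13 probe sets against days after flowering, with replicate 1 as a filled circle, replicate 2 as an open triangle, the line through the mean of the 2 arrays, and a dotted line at a signal of 50. DREB1, DREB2A2 and ERF6 climb to 50 DAF with their 45 DAF replicates far apart, AP2-9 leaves the low range at 50 DAF, and DREB1-like stays under 50 in all 10 arrays.

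DREB2A2 had the widest course among the DREB members. It is known in soybean as a dehydration- and heat-responsive activator, and RefSeq also lists it as AP2-7 and GmDREB2A2. In replicates 1 and 2 its signal was 767 and 670 at 25 DAF, 857 and 470 at 30 DAF, 236 and 150 at 40 DAF, 157 and 2228 at 45 DAF, and 20953 and 24356 at 50 DAF. Both arrays at 50 DAF stood above the other 8 arrays. Replicate 2 at 45 DAF was the next highest, whereas replicate 1 at 45 DAF lay between the arrays of 40 DAF.

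The mean signal of DREB2A2 went from 719 ± 68.8 at 25 DAF and 193 ± 61.4 at 40 DAF to 22655 ± 2406 at 50 DAF (SD, n = 2 each). It rose 38.2-fold from 45 to 50 DAF, a log2 change of 5.25 (SE 0.92, adjusted p = 0.00335), and 31.5-fold from 25 to 50 DAF, a log2 change of 4.98 (adjusted p = 0.00216). Between 30 and 40 DAF the log2 change was -1.75 (SE 0.92), which did not pass the threshold (adjusted p = 0.417). The trough at 40 DAF against the last age gave a log2 difference of 6.91 (adjusted p = 0.00071). All 4 comparisons of 50 DAF with an earlier age were called for DREB2A2, and none of the other 6 pairs of ages. In the unmoderated model of the methods, with Benjamini-Hochberg adjustment, 2 of these calls were lost. They were those from 45 to 50 DAF (adjusted p = 0.0758) and from 25 to 50 DAF (adjusted p = 0.0585).

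DREB1 shared the late rise but started from a substantial signal. DREB1 factors are best known from Arabidopsis, where they are also called CBF and act in cold acclimation. The probe set is of a type that can match several related transcripts, and its signal was 1815 and 2196 at 25 DAF, 1953 and 1607 at 30 DAF, 3276 and 2727 at 40 DAF, 2225 and 8138 at 45 DAF, and 20671 and 22978 at 50 DAF in replicates 1 and 2. Again the 2 arrays of 50 DAF stood above all others and replicate 2 at 45 DAF came next. The mean was 2006 ± 270 at 25 DAF, 3002 ± 389 at 40 DAF and 21824 ± 1631 at 50 DAF (SD, n = 2 each).

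DREB1 rose 5.12-fold from 45 to 50 DAF (log2 2.36, SE 0.45, adjusted p = 0.00458) and 10.9-fold from 25 to 50 DAF (log2 3.45, SE 0.45, adjusted p = 0.000346). Its earlier steps were a log2 change of -0.17 from 25 to 30 DAF, 0.75 from 30 to 40 DAF and 0.51 from 40 to 45 DAF. None of these passed, with adjusted p = 0.476 for the step to 40 DAF. The last interval held 62.1% of the summed size of its 4 steps, against 59.4% for DREB2A2. Without replicate 1 of 45 DAF these shares were 37.1% and 35.7%.

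The member named simply DREB was present at every age and varied within a narrow range. Its signal was 3763 and 3789 at 25 DAF, 3270 and 3261 at 30 DAF, 4579 and 4152 at 40 DAF, 3522 and 4311 at 45 DAF, and 5378 and 6298 at 50 DAF. On these rescaled signals the 2 arrays of 50 DAF were the highest and those of 30 DAF the lowest. The rise from 45 to 50 DAF was a log2 change of 0.58 (SE 0.18, adjusted p = 0.0403) and that from 25 to 50 DAF was 0.62 (SE 0.18, adjusted p = 0.0216).

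Neither call for DREB held in every setting. After quantile normalization the log2 change from 25 to 50 DAF was 0.02 (adjusted p = 0.938), and that from 45 to 50 DAF was -0.09. On the signals as deposited, without centring, they were 0.16 (adjusted p = 0.518) and 0.08 (adjusted p = 0.793). The call from 45 to 50 DAF was lost when any array other than replicate 2 of 45 DAF was left out (adjusted p = 0.0584 to 0.208), and the call from 25 to 50 DAF when any array of 25 or 50 DAF was left out (adjusted p = 0.0618 to 0.14). Without a trend in the prior variance both were lost (adjusted p = 0.124 and 0.0799), and with a pseudocount of 50 the first was (adjusted p = 0.0739). Its F-test over the 5 ages did not pass (adjusted p = 0.0384).

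DREB3, DREB5 and DREB1-like passed in none of the 10 pairs of ages. For DREB3 the signal was 1521 and 2056 at 25 DAF, 2293 and 1349 at 30 DAF, 2119 and 1600 at 40 DAF, 2027 and 1061 at 45 DAF, and 1421 and 1125 at 50 DAF. The arrays of 50 DAF lay below those of 25 and 40 DAF and overlapped those of 30 and 45 DAF, and the log2 change from 25 to 50 DAF was -0.48 (SE 0.31, adjusted p = 0.24). DREB3 was the 1 DREB member with a negative value in that comparison, and on the signals as deposited, without centring, it was called lower (log2 -0.94, adjusted p = 0.0379).

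DREB5 gave 53.4 and 112 at 25 DAF, 37.9 and 46.4 at 30 DAF, 68.0 and 57.5 at 40 DAF, 78.1 and 36.5 at 45 DAF, and 159 and 64.8 at 50 DAF. It was low in 3 arrays, and its log2 change of 0.39 from 25 to 50 DAF had an adjusted p = 0.716. DREB1-like was low in all 10 arrays, with signals between 2.55 and 43.3. Its values were 34.0 and 2.55 at 25 DAF, 4.07 and 7.15 at 30 DAF, 35.7 and 11 at 40 DAF, 43.3 and 35.3 at 45 DAF, and 6.89 and 39.3 at 50 DAF. At this level the replicates of 25 DAF already differ by a log2 value of 3.74, and no course over time could be read from this probe set.

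AP2-9, the single member with an AP2 symbol, was low in 8 of the 10 arrays and was above 50 only in the 2 arrays of 50 DAF. The signal was 3.46 and 4.66 at 25 DAF, 25.5 and 5.07 at 30 DAF, 4.70 and 4.12 at 40 DAF, 4.67 and 4.89 at 45 DAF, and 138 and 212 at 50 DAF. The overall F-test did not pass (adjusted p = 0.0274), whereas the contrasts did, with a log2 change of 5.16 from 45 to 50 DAF (SE 1.26, adjusted p = 0.0137) and 5.41 from 25 to 50 DAF (SE 1.26, adjusted p = 0.00705). Those sizes depend on signals near the bottom of the scale. With 50 added to every signal they were 2.08 and 2.07. The call from 45 to 50 DAF for AP2-9 was lost without replicate 1 of 45 DAF or either 50 DAF array (adjusted p = 0.0677 to 0.111), and that from 25 to 50 DAF without replicate 2 of 50 DAF (adjusted p = 0.073).

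Of the ERF members, ERF6 had the largest rise. Its signal was 597 and 608 at 25 DAF, 370 and 442 at 30 DAF, 392 and 363 at 40 DAF, 419 and 1440 at 45 DAF, and 3002 and 2905 at 50 DAF. The order matches that of the DREB pair, with both 50 DAF arrays on top and replicate 2 of 45 DAF next. The mean was 603 ± 8.07 at 25 DAF, 377 ± 20.2 at 40 DAF and 2954 ± 68.5 at 50 DAF (SD, n = 2 each). ERF6 rose 3.80-fold from 45 to 50 DAF (log2 1.93, SE 0.43, adjusted p = 0.00952) and 4.90-fold from 25 to 50 DAF (log2 2.29, adjusted p = 0.00233). Its step from 40 to 45 DAF was 1.04, with an adjusted p of 1. Without replicate 1 of 50 DAF the step from 45 to 50 DAF was not called for ERF6 (adjusted p = 0.0919).

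ERF5 had a more even course. The signal was 2061 and 2025 at 25 DAF, 2969 and 2786 at 30 DAF, 3359 and 3479 at 40 DAF, 3425 and 3041 at 45 DAF, and 5588 and 3223 at 50 DAF, on a probe set that can match related transcripts. The arrays of 25 DAF were the lowest, and at 50 DAF only replicate 1 stood above the range of 40 and 45 DAF. The log2 change from 25 to 50 DAF was 1.05 (SE 0.23, adjusted p = 0.00508), a 2.08-fold rise, and no single interval was called. On the signals as deposited, without centring, that change was 0.59 and was not called (adjusted p = 0.0598). ERF5 was the 1 member whose largest step lay between 25 and 30 DAF, with a log2 change of 0.49 that did not pass (SE 0.23, adjusted p of 1). After quantile normalization the change from 25 to 50 DAF was 0.49 (adjusted p = 0.104), and the call was also lost without replicate 1 of 25 DAF (adjusted p = 0.054) or replicate 1 of 50 DAF (adjusted p = 0.061).

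The 4 probe sets listed under the symbol ERF3 did not all give the same calls, and differences between them were not tested. Probe set a had the highest mean signal among them, and it read 4351 and 4818 at 25 DAF, 4247 and 3978 at 30 DAF, 5173 and 5920 at 40 DAF, 5044 and 4688 at 45 DAF, and 5314 and 4977 at 50 DAF. Its values at 50 DAF lay within the range of those at 40 and 45 DAF, and the log2 change from 25 to 50 DAF was 0.17 (adjusted p = 0.489). Probe set d read 3102 and 2801 at 25 DAF, 3048 and 2604 at 30 DAF, 2993 and 3756 at 40 DAF, 2913 and 2743 at 45 DAF, and 4457 and 4879 at 50 DAF. The 2 arrays of 50 DAF were the highest for d on these rescaled signals, but not on the signals as deposited. Probe set d rose by a log2 value of 0.72 from 45 DAF (SE 0.20, adjusted p = 0.0221) and 0.66 from 25 DAF (SE 0.20, adjusted p = 0.0226).

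Probe set c of ERF3 ranged from 2141 to 4730 and b from 18.6 to 108, with 3 arrays low for b. Neither was called in any pair of ages, and their log2 changes from 25 to 50 DAF were 0.41 and 0.22. The calls for d were lost after quantile normalization, where the change from 25 to 50 DAF was 0.08 (adjusted p = 0.772). Without either 50 DAF array both were lost (adjusted p = 0.0699 to 0.134), and without either 25 DAF array the one from 25 to 50 DAF was (adjusted p = 0.0675 and 0.152). Probe sets c and d can match related transcripts, and since no probe sequences were used, which transcript each one reads was not tested.

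**Figure D2:**
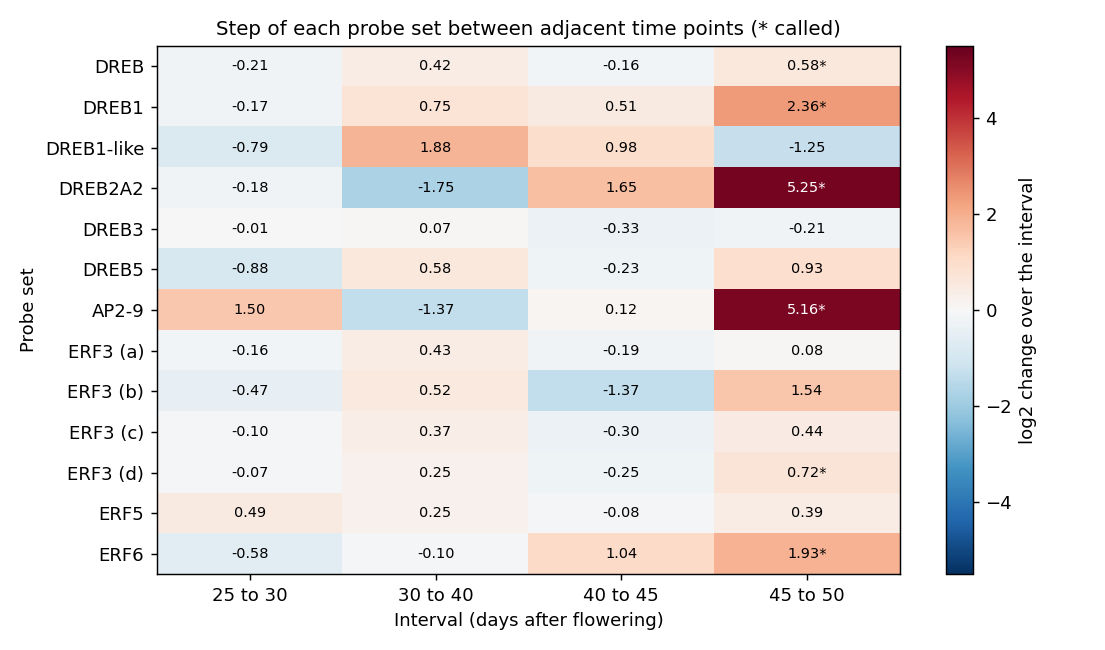
Log2 change of each of the 13 probe sets (vertical) over each of the 4 intervals between sampled ages (horizontal), coloured by size and sign, with an asterisk at an adjusted p under 0.05. The asterisks all fall in the interval from 45 to 50 DAF, where DREB2A2 has 5.25, AP2-9 5.16, DREB1 2.36, ERF6 1.93, ERF3 (d) 0.72 and DREB 0.58.

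The timing of the members was compared by interval. From 25 to 30 DAF, 0 of 13 members were called by limma, beside 0.0106% of all probe sets, and none had an unadjusted p under 0.05. From 30 to 40 DAF, 0 were called, beside 1.16% of all, with 0.678% of all higher. Before adjustment 2 members were under 0.05 there, ERF3 (a) with a log2 change of 0.43 and DREB with 0.42. From 40 to 45 DAF, 0 were called, beside 0% of all, with ERF6 alone under 0.05 before adjustment. The unmoderated F-test and contrasts of the model in the methods, here with Benjamini-Hochberg adjustment in place of the q-values of the study, called 0 members in each of these 3 intervals, and before adjustment it had 0, 2 and 0 under 0.05.

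Between 45 and 50 DAF, 6 of 13 members were called and all 6 were higher at 50 DAF, beside 31.2% of all probe sets in either direction and 18.6% that were higher. They were DREB, DREB1, DREB2A2, AP2-9, ERF3 (d) and ERF6. For 9 of the 13 probe sets this was the interval with the largest step, beside 57.3% of all. The exceptions were DREB1-like and ERF3 (a), whose largest step fell between 30 and 40 DAF (21.8% of all), DREB3, between 40 and 45 DAF (10.5% of all), and ERF5, between 25 and 30 DAF (10.4% of all). Replicates of 45 and 50 DAF did not overlap for 8 members, beside 64.1% of all probe sets.

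Comparing the last age with the first, 7 of 13 members were called, all of them higher at 50 DAF, beside 43.9% of all probe sets in either direction and 24.6% that were higher. ERF5 joined the 6 above. The replicates did not overlap for 9 members, beside 73.7% of all. No member was called lower, beside 19.3% of all probe sets. Against 30 DAF, 6 members were called at 50 DAF (DREB, DREB1, DREB2A2, AP2-9, ERF3 d and ERF6), beside 42.5% of all probe sets, and against 40 DAF 4 were called (DREB1, DREB2A2, AP2-9 and ERF6), beside 36.7%. All of these were higher at 50 DAF. The pairs of ages that leave out 50 DAF and skip an age had 0 calls among the members, beside 3.09% of all for 40 against 25 DAF, 6.01% for 45 against 25 DAF and 2.71% for 45 against 30 DAF. The comparisons with each earlier age share the arrays of 50 DAF.

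**Figure D3:**
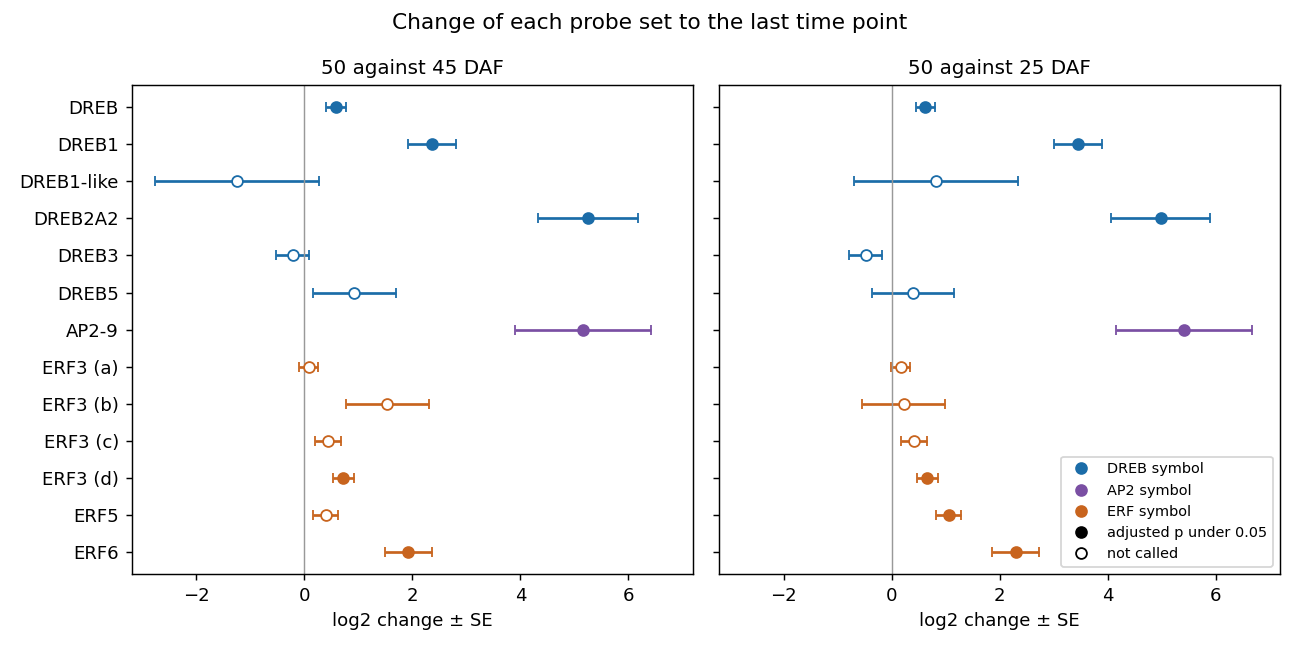
Log2 change ± SE of each of the 13 probe sets from 45 to 50 DAF (left) and from 25 to 50 DAF (right), coloured by symbol group, filled where the adjusted p is under 0.05 and open otherwise. From 25 to 50 DAF the DREB values run from -0.48 to 4.98 and the ERF values from 0.17 to 2.29, so that the ERF range lies inside the DREB range.

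DREB and ERF members were set side by side as a description, without a test. At 50 against 25 DAF the median log2 change was 0.72 for the 6 DREB probe sets (-0.48 to 4.98) and 0.54 for the 6 ERF probe sets (0.17 to 2.29), with a median of 0.17 over all probe sets. Of each group, 3 probe sets were called higher. From 45 to 50 DAF the medians were 0.75 for DREB (-1.25 to 5.25) and 0.58 for ERF (0.08 to 1.93), beside 0.19 over all probe sets, with 3 DREB and 2 ERF calls. The 2 groups thus overlapped over most of their range, and the largest rises were those of the DREB members DREB2A2 and DREB1.

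Between 30 and 40 DAF the medians were 0.50 for DREB (-1.75 to 1.88) and 0.31 for ERF (-0.10 to 0.52), and between 40 and 45 DAF they were 0.17 and -0.22. With ERF3 counted once, as the median of its 4 probe sets, the ERF median from 25 to 50 DAF was 1.05 over 3 genes. Moving DREB to the ERF group, where its RefSeq synonyms would place it, gave 0.82 for the remaining 5 DREB probe sets and 0.62 for the 7 ERF probe sets. With 50 added to every signal and each probe set counted, both medians were 0.46. Which group had the larger median therefore depends on how ERF3 is counted and on how low signals are treated.

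The 45 DAF replicates divided DREB1, DREB2A2 and ERF6. DREB2A2 was 14.2-fold higher in replicate 2 than in replicate 1, a log2 difference of 3.82, and 2.99% of all probe sets differed by as much or more. DREB1 was 3.66-fold higher (log2 1.87) and ERF6 3.44-fold higher (log2 1.78), with 14% and 15% of all probe sets differing by as much. At the other 4 ages the replicate differences of these 3 probe sets were between -0.87 and 0.28. AP2-9, by contrast, differed by 0.07 at 45 DAF, with both arrays at its low level.

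**Figure D4:**
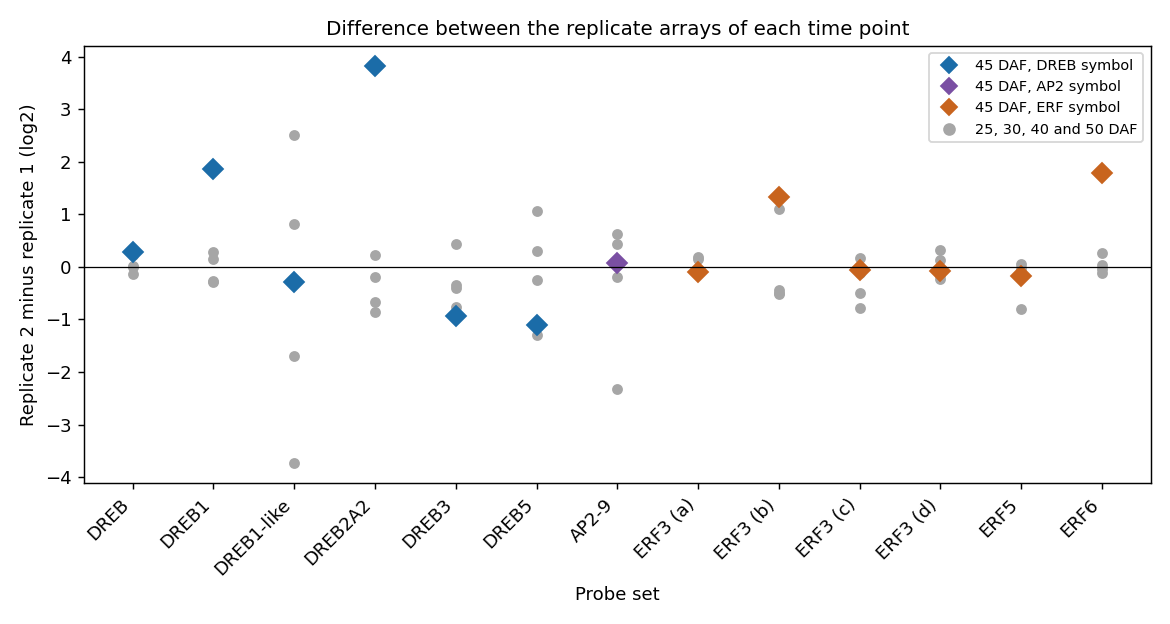
Log2 signal of replicate 2 minus replicate 1 for each of the 13 probe sets, with the 45 DAF difference as a coloured diamond and the other 4 ages as grey circles. The 45 DAF diamonds of DREB2A2 (3.82), DREB1 (1.87) and ERF6 (1.78) stand apart from the grey circles of the same probe sets.

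The same arrays differed in HPS, a gene of the seed coat list. HPS, a hydrophobic protein abundant on the soybean seed surface, had signals of 55179 and 14670 in replicates 1 and 2 of 45 DAF, between 48536 and 61731 in the 6 arrays of the earlier ages, and 242 and 144 at 50 DAF. Which tissue made the HPS transcript was not tested. SCB1, a seed coat protein and the other gene of that list, was at 67.8 and 11.8 at 45 DAF and at 71.6 and 63.5 at 50 DAF, down from 18531 and 16010 at 25 DAF. Both fell from 25 to 50 DAF, the interval over which 7 members rose, but at different ages. SCB1 was already at 126 and 96.2 at 40 DAF, and its change from 45 to 50 DAF was not called (log2 1.25, adjusted p = 0.496). HPS had a log2 change of -7.25 from 45 to 50 DAF. At 30 DAF SCB1 differed between replicates, with 847 and 19958. NOD33 (1 of 5 nodule probe sets) and the leaf gene RCABETA (1 of 6) fell as well, by 3.85 and 2.84 on the log2 scale. They do not stand for their lists, whose median log2 changes from 25 to 50 DAF were -0.24 (nodule) and 0.07 (leaf). Another nodule probe set was called higher from 45 to 50 DAF (log2 2.63, adjusted p = 0.0333). Whether the share of any tissue changed, and its part in the results for the members, was not tested. Across all 37593 probe sets, which are not independent of one another, the 45 DAF difference between replicates correlated with the change from 40 to 50 DAF with r = 0.42, against 0.03 for the replicate difference at 25 DAF and -0.05 at 30 DAF.

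Which interval carried the rise depended on the 45 DAF replicate used. Without replicate 1 of 45 DAF, 3 members were called higher from 40 to 45 DAF, beside 3.18% of all probe sets. These were DREB2A2 with a log2 change of 3.75 (adjusted p = 0.000722), DREB1 with 1.46 (adjusted p = 0.0125) and ERF6 with 1.92 (adjusted p = 0.00641). Their later steps, from 45 to 50 DAF, were then 3.15, 1.41 and 1.05, all called. Without replicate 2 of 45 DAF the steps from 40 to 45 DAF were -0.45, -0.44 and 0.17 (adjusted p of 1 each), and those from 45 to 50 DAF were 7.35, 3.31 and 2.80. In both cases the lone array is assumed to vary like the arrays of the other ages. With replicate 1, replicate 2 or both arrays of 45 DAF left out, the step from 30 to 40 DAF was also called, higher for DREB1 by 0.75 and lower for DREB2A2, where it was -1.75. The share of all probe sets called in that step rose to between 6.51% and 6.53% in these settings.

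A list of genes that may carry an AP2 domain under other names, matched by the first letters of the symbol, held changes in both directions. Of 11 probe sets in that list, 3 were called over time, beside 24% of all probe sets. At 50 against 25 DAF, 5 were called higher, beside 24.6% of all, and 1 lower, beside 19.3%. WRI1B, a counterpart of the Arabidopsis activator of fatty acid synthesis WRINKLED1, fell from 1527 ± 186 at 25 DAF to a mean signal of 72.5 ± 3.57 at 50 DAF (SD, n = 2 each), a log2 change of -4.39 (SE 0.32, adjusted p = 4.25e-05). WRI1B was at 1180, 939 and 820 at 30, 40 and 45 DAF, so that most of its fall lay in the interval in which DREB1, DREB2A2 and ERF6 rose. EREB, with the synonyms GmERF054 and GmERF058, rose on both of its probe sets, by 0.63 (adjusted p = 0.0234) and 0.98 (adjusted p = 0.0452).

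The same list took in WIN, PTI1 and PTI1B by the first letters of their symbols, and these were higher at 50 DAF by 4.83, 0.81 and 4.37. PTI1 is also the name of a tomato protein kinase that carries no AP2 domain, and the symbols do not tell which protein is meant. EREBP1 (synonym GmERF076), the 3 RAV probe sets and PTI1A were not called in either comparison with 50 DAF.

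Genes of ethylene synthesis and perception, the hormone that gave the ERF factors their name, were mostly low or flat. ETR2, an ethylene receptor, was the 1 of 7 probe sets called over time, beside 24% of all probe sets. Its means were 2378 ± 140 at 25 DAF, 2693 at 30 DAF, 1763 at 40 DAF, 1439 at 45 DAF and 6305 ± 909 at 50 DAF (SD, n = 2). It rose by a log2 value of 2.16 from 45 to 50 DAF (adjusted p = 0.000595) and 1.40 from 25 to 50 DAF (adjusted p = 0.00149). The receptor EIN4 had a log2 change of 0.48 from 25 to 50 DAF (adjusted p = 0.284), and none of the 4 probe sets for the synthesis enzymes ACS and ACS1 was called. The seventh, ACSL2, is an acyl-CoA synthetase by name and entered by its first letters.

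Abscisic acid was represented by 3 probe sets of 2 genes, and 0 of 3 were called over time, beside 24% of all probe sets. ZEP, zeaxanthin epoxidase of abscisic acid synthesis, had a mean of 928 ± 52.6 at 25 DAF and 1342 ± 416 at 50 DAF (SD, n = 2 each), a log2 change of 0.50 that did not pass (adjusted p = 0.344). BZIP1, which RefSeq also names AREB1 after abscisic acid-responsive element binding factors, was called lower from 45 to 50 DAF on 1 of its 2 probe sets. There its mean signal went from 86.0 to 2.68, and its second probe set had a log2 change of 0.70 in the same comparison (adjusted p = 0.661).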

How the data were processed

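Seed RNA was hybridised to 1-colour Affymetrix arrays. The deposited values are intensities on a linear scale that the authors made with MAS5, with global scaling of each chip. The deposited table holds 37593 soybean probe sets without detection calls. Log2 signals were centred on each array's median and fitted in R 4.3.3 (limma 3.58.1) with age and replicate number as fixed effects, as in the study's methods, and prior variances that follow signal (residual degrees of freedom 4, prior 5.08). Benjamini-Hochberg adjustment ran over all probe sets, with thresholds of 0.01 for the F-test and 0.05 for contrasts. The 4 adjacent steps and 50 against 25 DAF were planned, and the other 5 pairs were added after the data had been seen. The fit was tested on simulated data with known changes.

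The members and lists were chosen with earlier results of these data known. Values in every array were given by rule for the DREB and AP2 members, ERF members called over time and the 4 members of highest mean signal. Those of ERF5 and ERF3 (d) were added after their values had been seen. Lists were matched by the start of a symbol or RefSeq synonym. The paper gives the third age both as 35 and as 40 DAF, and the sample labels' 40 DAF was used. Replicate numbers did not pair the samples: replicate differences of different ages correlated between -0.03 and 0.03 over 10 pairs. Precision is limited by the number of arrays. Alternatives were quantile normalization, no centring, no trend in the prior variance, a pseudocount of 50, only probe sets of at least median mean signal, the unmoderated model of the methods with Benjamini-Hochberg adjustment (the study used q-values), no replicate block and leaving out each array, and, chosen after the data had been seen, leaving out both arrays of 45 DAF and regrouping DREB and ERF3.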

Additional observations from a re-analysis of the deposited data

How the results depend on the processing

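With 2 arrays at each age, the calls depend on the estimate of the spread. The 3 members called over time became 0 without a trend in the prior variance and 0 under the methods' test (0% of all probe sets in both), 2 after quantile normalization (19.1%), 4 with a pseudocount of 50 (26.3%) and 4 without both 45 DAF arrays (34.6%), beside 24% of all in the fit reported. They ranged from 0 to 3 when 1 array was left out, with 0 without either 50 DAF array (4.29% and 7.45% of all) and 1 without either 25 DAF array (13.7% and 12.5%). The 6 calls from 45 to 50 DAF became 1 under the methods' test (15.2% of all, from 31.2%), 4 without centring and 5 after quantile normalization, where ERF3 (a) was lower, and ranged from 2 to 6 (2 without replicate 1 of 50 DAF, with 15% of all, and 3 without replicate 2, with 21.8%). The 7 calls from 25 to 50 DAF became 4 after quantile normalization (40.7% of all, from 43.9%) and 5 without centring (43.8%), and ranged from 4 to 7, with 4 without either 50 DAF array (31.2% and 35.1%). DREB1, DREB2A2, AP2-9 and ERF6 were the 4 kept after quantile normalization. Without centring the same 4 were kept, and the fifth call was DREB3, which was lower at 50 DAF. For the step from 45 to 50 DAF the share of all probe sets called was 30.4% without centring and 25% after quantile normalization. Without a trend in the prior variance, 4 members were called in that step (21.9% of all) and 5 from 25 to 50 DAF (39%). Under the methods' test the 1 call from 45 to 50 DAF was AP2-9 (adjusted p = 0.0372). DREB1, DREB2A2 and ERF6 lost theirs there (adjusted p = 0.0792, 0.0758 and 0.0935). From 30 to 40 DAF the count ranged from 0 to 2 and was 2 without both 45 DAF arrays, and from 40 to 45 DAF it ranged from 0 to 3. From 25 to 30 DAF it was 0 in every setting. Leaving out the replicate block changed no count of called members (3 over time, 6 from 45 to 50 DAF and 7 from 25 to 50 DAF).

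The DREB median from 25 to 50 DAF, 0.72, ranged from 0.72 to 1.76 when 1 array was left out, and was 0.26 without centring and 0.46 with a pseudocount of 50. The ERF median, 0.54, ranged from 0.40 to 0.70, and was 0.077 without centring, 0.24 after quantile normalization, 0.46 with a pseudocount of 50 and 1.05 with 1 value per gene. The median of all probe sets, 0.17, fell by 0.46 without centring and fell by 0.13 after quantile normalization. The sign of the change from 25 to 50 DAF turned for ERF3 (a) (-0.41 after quantile normalization, -0.29 without centring), ERF3 (c) (-0.12 and -0.047), and, without centring, for ERF3 (b) (-0.24) and DREB5 (-0.067). When 1 array was left out, DREB1-like ranged from -1.22 to 2.85, DREB3 from -1.01 to 0.038, DREB5 from -0.43 to 1.22 and ERF3 (b) from -0.35 to 0.79. Of 230 alternative values for single members, 195 kept their direction and their side of the threshold, 20 lost a call, 2 gained one and 13 changed sign. Direction could change only with another scaling, a pseudocount, or an array of 25 or 50 DAF left out. In the other settings the size of the change was fixed in advance, so the tally is no measure of how stable the directions are. The causes were not tested.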
